A study of Mus musculus with 4 samples.

Results

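The axon guidance ligands and receptors are the genes of 6 protein families: the semaphorins and their plexin receptors, the ephrins and their Eph receptors, and the Slits and their Robo receptors. They were chosen by name, as every protein-coding gene whose symbol follows the pattern of a class 3 to 7 semaphorin, a plexin, an Eph receptor, an ephrin, a Slit or a Robo. This gave 58 of the 54532 genes in the count table, namely 20 semaphorins, 9 plexins, 14 Eph receptors, 8 ephrins, 3 Slits and 4 Robos. Of these, 50 passed the filter on low counts and were tested, as part of a fit over 16451 genes. The other 8 are given by their counts.

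These genes were measured in TAMs (tumor-associated macrophages) of NB9464 tumors, a transplanted mouse neuroblastoma line in which MYCN is amplified. M7 and M8 are the 2 libraries labelled Syk MC-WT, and M9 and M10 the 2 labelled Syk MC-KO. Both groups were mice of the C57BL/6 background, aged 4 to 6 weeks at implantation, that received NB9464 cells under the skin and no treatment until the tumors were taken on day 40. The strain Syk MC-KO was bred from floxed Syk mice and mice with a Cre recombinase under control of lysozyme M (the gene Lyz2), which acts in the myeloid lineage and not only in macrophages. TAMs were separated with magnetic beads against CD11b and F4/80, surface proteins that other myeloid cells can also carry, and the labels do not say whether each library is 1 mouse or a pool. The labels name bone marrow derived macrophages as the source of the RNA in one place and tumors in another, and the file is titled as an adoptive transfer, so the groups below are only those of the genotype labels.

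Axon guidance molecules are surface or secreted cues that steer growing nerve fibres, and cells outside the nervous system use the same ligands and receptors in vessel growth, cell sorting and immune cell contact. Semaphorins bind plexins, which act through small GTPases on the cytoskeleton and on integrin adhesion, and the secreted class 3 semaphorins mostly need a neuropilin beside the plexin. Ephrins and Eph receptors are both held at the cell surface, so that contact between cells can send a signal into either one. Slits are large secreted proteins that bind Robo receptors and were first known for repelling axons at the midline.

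The libraries had between 20755886 and 23518045 counts, and the 3 counts taken as the smallest detectable signal lie at 0.109 to 0.163 CPM, the unit of counts scaled to library totals, here corrected by TMM factors. Syk itself, the targeted gene, was at 27.9 and 23.2 CPM in M7 and M8 and at 196 and 160 CPM in M9 and M10, so M9 and M10 were above the others (log2 fold change 2.80, SE 0.19, adjusted p = 0.000674). Lyz2, the locus whose promoter drives the Cre and itself a macrophage gene, was at 296 and 208 CPM in M7 and M8 and at 8.64 and 20.2 CPM in M9 and M10 (log2 fold change -4.13, adjusted p = 0.00156). The measured level of Syk, taken alone, therefore goes against the labels. Its log2 fold change of 2.80 was close to the median of 3.01 over the macrophage markers given next. Relative to those markers, Syk was thus not clearly lower under the label Syk MC-KO either, while Lyz2 was lower. Whether the labels are right was not tested, and every direction below is for the libraries as labelled. Of the markers of the labelled cell type, 10 of 10 listed macrophage genes were higher in M9 and M10, opposite to Lyz2, which is not on the list, with a summed level of 1135 and 803 CPM in M7 and M8 and of 9531 and 5702 CPM in M9 and M10. Of 8 fibroblast markers 5 were lower, with a summed level of 12630 and 14530 CPM against 4039 and 4958 CPM. In M7 and M8 the summed fibroblast markers were thus above the summed macrophage markers. Most of that fibroblast sum came from the collagen genes Col1a1 (5662 and 6641 CPM) and Col3a1 (6158 and 7118 CPM). The order of the sums in M7 and M8 rested on these collagen genes and did not hold without them. The groups overlapped in 2 of the 8 fibroblast markers. Mitochondrial genes took 2.20% and 2.34% of the counts in M7 and M8 and 6.00% and 15.9% in M9 and M10.

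The genotypes were compared to ask which guidance genes differ with the Syk label. Among the 50 tested members, 7 were higher under the label Syk MC-KO (14.0%, against 22.7% of all tested genes) and 17 were lower (34.0%, against 16.7% of all tested genes), by edgeR's quasi-likelihood test at an adjusted p under 0.05. The remaining 26 did not pass the threshold. The median log2 fold change was -0.77 over the members and 0.02 over all tested genes. In 13 members both M9 and M10 lay above both M7 and M8, against 38.0% of all tested genes, and in 31 both lay below, against 37.2% of all tested genes, while the groups overlapped in 6. The higher members were Sema4a, Sema4d, Sema6b, Plxna4, Plxnb2, Plxnd1 and Epha5. The lower members were 9 semaphorins (Sema3a, Sema3b, Sema3c, Sema3f, Sema4c, Sema4f, Sema4g, Sema6c and Sema7a), 3 plexins (Plxna2, Plxna3 and Plxnb1), Efna1, Efnb2, Ephb4, Slit2 and Slit3.

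These directions depend on how libraries are made comparable. With the 10 macrophage markers in place of TMM as the scale, which moves the median of all genes to -2.78, none of the 7 higher members was past the threshold as higher, 6 of them had a negative log2 fold change (between -1.91 and -0.33) and Epha5 had 1.15, while 43 members were lower (87.0% of all tested genes were lower under this scaling). With library size only, which moves the median of all genes to -0.52, 4 members were higher and 31 lower, against 10.2% and 32.9% of all tested genes. The number of lower calls also depends on single libraries, being 7 without M8 and 27 without M10, and so does that over all tested genes, at 4.69% without M8 and 27.4% without M10. In bulk RNA, fewer cells of a type and less RNA per cell cannot be told apart.

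**Figure D1:**
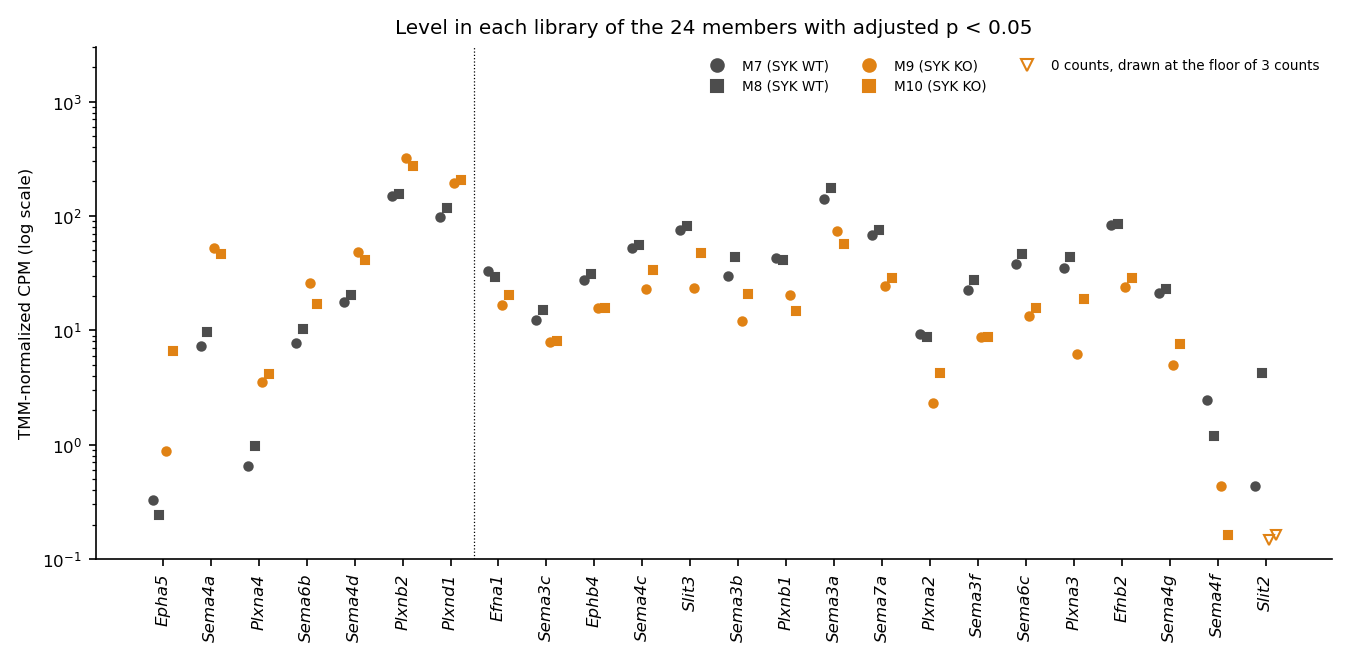
TMM-normalized CPM on a log axis of the 24 members past the threshold in each of the 4 libraries, with the 7 higher ones left of the dotted line. Grey points are M7 and M8, orange points are M9 and M10, and open triangles mark the 0 counts of Slit2 at the floor of 3 counts. The genes were chosen for differing between these groups, the libraries M9 and M10 lie far apart for Epha5 and Plxna3, and with scaling to macrophage markers 6 of the 7 genes on the left turn lower.

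The secreted class 3 semaphorins lay on one side. All 7 were at a lower level in M9 and M10 than in M7 and M8, against 37.2% of all tested genes. Their log2 fold changes lay between -1.50 and -0.78, with a median of -1.19. Of the 7, 4 passed the test, against 16.7% of all tested genes called lower. The summed level of the class was 218 and 272 CPM in M7 and M8 and 108 and 99.99 CPM in M9 and M10. Sema3a, the founding repellent of the class, which binds neuropilin 1 and class A plexins, was at 141 and 175 CPM in M7 and M8 and 73.3 and 57.3 CPM in M9 and M10. It was lower by more than the spread between replicates, at 158 ± 23.8 CPM against 65.3 ± 11.3 CPM (SD, n = 2 each; log2 fold change -1.27, SE 0.20, adjusted p = 0.00486). Sema3f, which binds neuropilin 2, was at 22.6 and 27.3 CPM in M7 and M8 and at 8.79 and 8.77 CPM in M9 and M10. The libraries labelled Syk MC-KO were close to each other and far below the others (log2 fold change -1.50, SE 0.21, adjusted p = 0.00365).

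Sema3b, a second ligand of neuropilin 2 studied as a tumor suppressor, was at 29.8 and 43.3 CPM in M7 and M8 and at 11.9 and 20.7 CPM in M9 and M10. Its lower level (log2 fold change -1.17, SE 0.31, adjusted p = 0.0279) missed the threshold without M8 (log2 fold change -0.88, adjusted p = 0.166). Sema3c, known for guiding cells of the cardiac outflow tract, was at 12.4 and 15.0 CPM against 7.96 and 8.01 CPM. This was the least changed of the called class 3 genes (log2 fold change -0.78, SE 0.25, adjusted p = 0.0459), and it missed the threshold without M7 (-0.91, adjusted p = 0.169) or without M8 (-0.64, adjusted p = 0.385). Sema3d, Sema3e and Sema3g did not pass the test, with log2 fold changes of -1.27, -1.19 and -0.94 and levels of at most 7.18 CPM in any library. Sema3e is the ligand that binds plexin D1 without a neuropilin.

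The class 4 semaphorins, which are membrane proteins of immune and epithelial cells, moved both ways. Sema4a, a class 4 member known for acting between antigen-presenting cells and T cells, was at 7.29 and 9.73 CPM in M7 and M8 and at 52.1 and 46.1 CPM in M9 and M10. It was 5.78-fold higher in M9 and M10, at 49.1 ± 4.27 CPM against 8.51 ± 1.72 CPM (SD, n = 2 each; log2 fold change 2.53, SE 0.21, adjusted p = 0.000898), although the change was -0.33 with scaling to macrophage markers. Sema4d (CD100), whose receptors are plexin B1 and, on lymphoid cells, CD72, was at 17.7 and 20.3 CPM in M7 and M8 and at 48.2 and 40.8 CPM in M9 and M10. The groups were 2.35-fold apart (log2 fold change 1.23, SE 0.18, adjusted p = 0.00409), and -1.62 with scaling to macrophage markers. Sema4a and Sema4d were the only higher members that passed the threshold in each of the 4 fits that left out 1 library, with log2 fold changes between 2.33 and 2.74 and between 1.02 and 1.36.

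Sema4c, a class 4 semaphorin that binds plexin B2, was at 52.5 and 56.1 CPM in M7 and M8 and at 22.8 and 33.8 CPM in M9 and M10. It was the most abundant class 4 gene of M7 and M8 and was lower in M9 and M10 (log2 fold change -0.94, SE 0.22, adjusted p = 0.0183), with an adjusted p of 0.0511 without M7 and 0.0951 without M8. Sema4g was at 21.2 and 23.0 CPM against 5.0 and 7.52 CPM, which was 3.53-fold lower (log2 fold change -1.82, SE 0.27, adjusted p = 0.00427). Sema4f was close to the floor in M9 and M10, at 2.44 and 1.18 CPM in M7 and M8 against 0.437 and 0.164 CPM. It was called lower (log2 fold change -2.56, SE 0.78, adjusted p = 0.0421) but not without M7 (-1.95, adjusted p = 0.473) or without M8 (-3.00, adjusted p = 0.167). Sema4b, the sixth of the class, stayed between 21.9 and 27.2 CPM in the 4 libraries (log2 fold change 0.20, adjusted p = 0.400).

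A share within the class does not depend on how libraries are scaled, since the scaling factor cancels. On levels per kilobase of exon, Sema4a made up 6.17% and 7.59% of the class 4 transcripts in M7 and M8 and 37.2% and 31.7% in M9 and M10. Sema4c went the other way, from 52.2% and 51.5% to 19.1% and 27.4%. The ratio of Sema4a to Sema4c was 0.118 and 0.147 in M7 and M8 and 1.95 and 1.16 in M9 and M10, so the order of these paralogs was opposite between the genotypes in all 4 libraries. Sema4d went from a share of 10.5% and 11.1% to 24.2% and 19.7%, and the share of Sema4b overlapped between groups, at 17.8% and 17.6% against 17.0% and 17.9%.

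**Figure D2:**
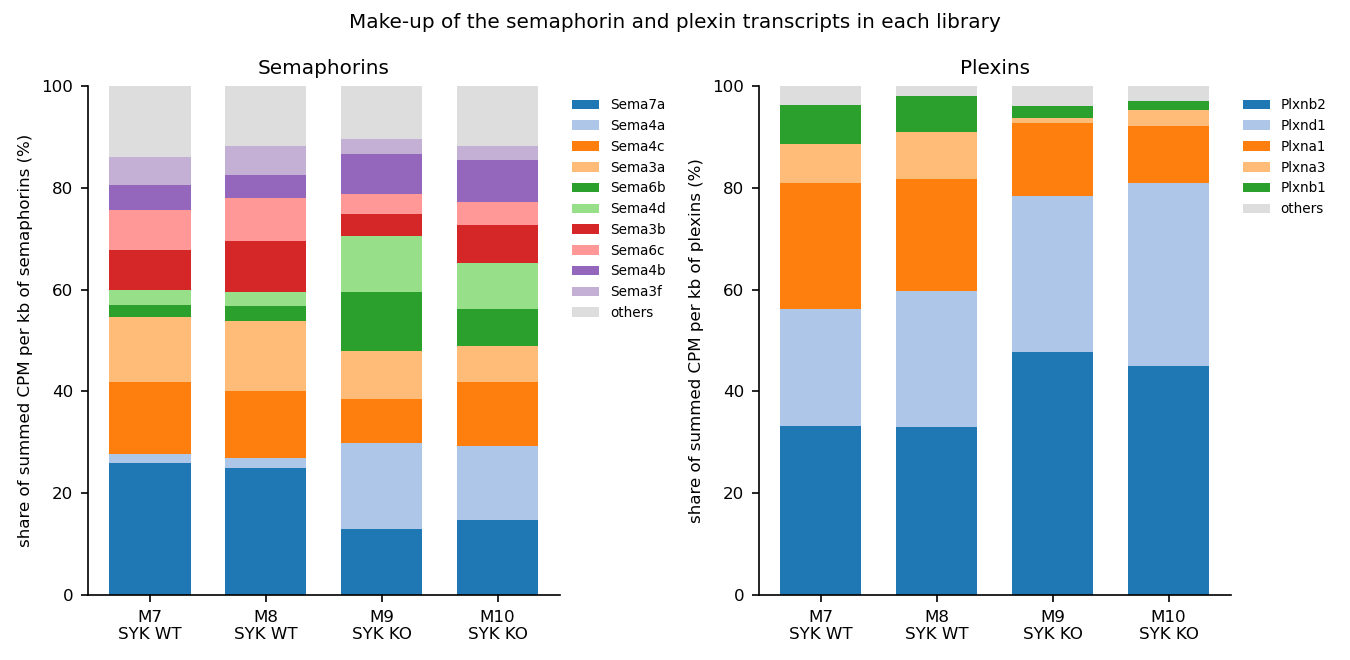
Share in percent of the summed level per kilobase of all semaphorins (left) and all plexins (right) in each library, as stacked bars. Genes under 5% in each library are summed as others. Sema4a grows from 1.68% and 1.96% of semaphorin transcripts in M7 and M8 to 17.0% and 14.6% in M9 and M10 while Sema7a shrinks, and Plxnb2 and Plxnd1 together fill more of the plexin bars of M9 and M10. Shares do not change with the scaling of the libraries.

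The transmembrane class 6 semaphorins held another pair that moved in opposite directions. Sema6b was at 7.69 and 10.3 CPM in M7 and M8 and at 26.0 and 17.0 CPM in M9 and M10. Both libraries labelled Syk MC-KO were above the others (log2 fold change 1.26, SE 0.29, adjusted p = 0.0178), but the adjusted p was 0.0949 without M7, and the log2 fold change was 0.83 without M9 and -1.65 with scaling to macrophage markers. Sema6c was at 38.1 and 46.1 CPM in M7 and M8 and at 13.5 and 15.6 CPM in M9 and M10. It was lower by 2.90-fold (SE of the log2 fold change 0.19, adjusted p = 0.00241). As shares of class 6 transcripts, Sema6b was at 15.9% and 18.9% against 56.4% and 41.0%, and Sema6c at 52.7% and 56.8% against 19.5% and 25.2%. Sema6a and Sema6d, ligands of class A plexins, overlapped between genotypes, with log2 fold changes of -0.24 and -0.02.

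Sema7a, the one semaphorin held in the membrane by a lipid anchor, binds plexin C1 and integrin beta 1 and is known for acting on monocytes. It was the semaphorin with the highest level per length in M7 and M8, at 68.7 and 75.3 CPM, and was at 24.2 and 28.4 CPM in M9 and M10. The difference of 2.74-fold (72.0 ± 4.69 against 26.3 ± 2.98 CPM, SD, n = 2 each) was well over the spread between replicates (log2 fold change -1.45, SE 0.17, adjusted p = 0.00199). Sema7a made up 26.0% and 24.9% of all semaphorin transcripts in M7 and M8 and 12.9% and 14.7% in M9 and M10. The class 5 genes Sema5a and Sema5b, which carry thrombospondin repeats, were at most 8.86 CPM and did not pass the test (log2 fold changes -0.88 and -1.43).

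Of the 9 plexins, all of which were tested, 3 were higher, 3 were lower and 3 did not pass the test, beside 22.7% higher and 16.7% lower over all tested genes. Plxnb2, the receptor of Sema4c and the most highly expressed member per length in M9 and M10, was at 148 and 155 CPM in M7 and M8 and at 319 and 275 CPM in M9 and M10. It was 1.96-fold higher (log2 fold change 0.97, SE 0.17, adjusted p = 0.0069). Plxnd1, the receptor of Sema3e, best known in vessel growth, was at 97.1 and 117 CPM in M7 and M8 and at 194 and 208 CPM in M9 and M10. It was 1.88-fold higher (log2 fold change 0.91, SE 0.17, adjusted p = 0.00916). Both receptors kept their direction with library size only but not their call (0.44, adjusted p = 0.122, and 0.37, adjusted p = 0.140), and were lower with scaling to macrophage markers (-1.86 and -1.91). Without M7 their adjusted p was 0.0695 and 0.114, and without M8 it was 0.0729 and 0.0536.

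Plxna4, a class A plexin of neurons that also takes part in the Toll-like receptor response of macrophages, was low, with 18 and 24 counts in M7 and M8 and 72 and 76 counts in M9 and M10. These correspond to 0.656, 0.977, 3.50 and 4.14 CPM, with the libraries labelled Syk MC-KO above the others (log2 fold change 2.22, SE 0.50, adjusted p = 0.0161), although the change was -0.59 with scaling to macrophage markers and the adjusted p was 0.167 without M7 and 0.115 without M8. Plxna3, whose main partners are Sema3f and neuropilin 2, was at 35.3 and 43.9 CPM in M7 and M8 and at 6.26 and 18.8 CPM in M9 and M10. Both libraries labelled Syk MC-KO were lower, with a wide gap between them (log2 fold change -1.66, SE 0.47, adjusted p = 0.0326), and without M8 the adjusted p was 0.0795. Its log2 fold change was -1.16 without M9 and -2.65 without M10. Plxna2 was at 9.33 and 8.75 CPM against 2.33 and 4.20 CPM. It was also called lower (log2 fold change -1.47, SE 0.38, adjusted p = 0.0256), with an adjusted p of 0.145 without M7 and 0.135 without M8.

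Plxnb1, the high-affinity receptor of Sema4d, was at 42.8 and 41.2 CPM in M7 and M8 and at 20.3 and 14.8 CPM in M9 and M10. The fall was 2.39-fold (log2 fold change -1.26, SE 0.21, adjusted p = 0.00556). Its paralog Plxnb2 was thus 4.31 and 4.66 times as abundant per length in M7 and M8 and 19.5 and 23.1 times in M9 and M10. As a share of all plexin transcripts per length, Plxnb2 was at 33.3% and 33.1% in M7 and M8 and at 47.7% and 45.0% in M9 and M10, and Plxnd1 was at 23.0% and 26.6% against 30.7% and 36.0%. Plxna1 took a smaller share in M9 and M10 (24.6% and 22.0% against 14.4% and 11.3%), although its own level did not pass the test (log2 fold change -0.37, adjusted p = 0.188). Plxnc1, the receptor of Sema7a, was at 11.8 and 4.72 CPM against 23.2 and 12.8 CPM and did not pass the test (log2 fold change 1.12, adjusted p = 0.113). Plxnb3 was under 1.6 CPM in each library.

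**Figure D3:**
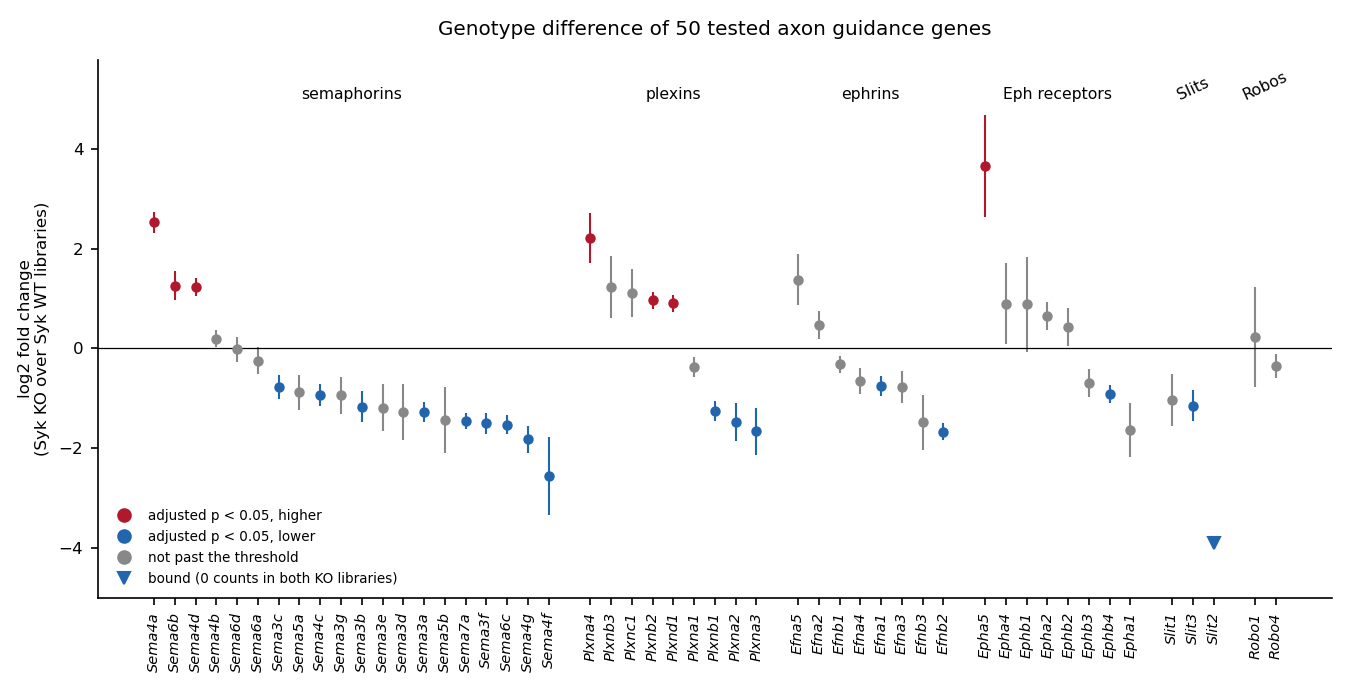
Log2 fold change (libraries labelled Syk MC-KO over Syk MC-WT, TMM scaling) of the 50 tested members by family, with bars of 1 SE. Red and blue mark members past the threshold, grey those that were not, and the triangle is the bound for Slit2. Semaphorins and Slits lie mostly below 0 and the plexins on both sides, and with scaling to macrophage markers the red points other than Epha5 turn negative.

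Promoter sequence is shown for 6 members because paralogs in the same libraries moved in opposite directions. The higher genes Plxnb2 and Plxnd1 and the lower gene Sema7a had the highest level per length in their direction among members with a RefSeq window, Plxnb1 is the lower paralog of Plxnb2, and the pair of Sema4a and Sema4c was chosen after its values were seen. Each sequence is the 250 bases before the start site that lies farthest upstream, from RefSeq (GRCm38.p6), and reads in the direction of the gene. Capitals mark GAGGAA, the core bound by the myeloid factor PU.1 and other ETS proteins, in either orientation. The windows lie at chr15:89180789-89181038 (minus strand) for Plxnb2, chr9:109095186-109095435 (plus strand) for Plxnb1, chr6:115995006-115995255 (minus strand) for Plxnd1, chr3:88461183-88461432 (minus strand) for Sema4a, chr1:36558382-36558631 (minus strand) for Sema4c and chr9:57939862-57940111 (plus strand) for Sema7a.
Plxnb2: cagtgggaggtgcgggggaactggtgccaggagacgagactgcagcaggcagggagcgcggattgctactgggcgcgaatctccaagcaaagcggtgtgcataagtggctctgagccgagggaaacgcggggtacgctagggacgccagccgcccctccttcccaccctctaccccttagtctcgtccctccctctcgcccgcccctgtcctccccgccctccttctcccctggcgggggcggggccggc
Plxnb1: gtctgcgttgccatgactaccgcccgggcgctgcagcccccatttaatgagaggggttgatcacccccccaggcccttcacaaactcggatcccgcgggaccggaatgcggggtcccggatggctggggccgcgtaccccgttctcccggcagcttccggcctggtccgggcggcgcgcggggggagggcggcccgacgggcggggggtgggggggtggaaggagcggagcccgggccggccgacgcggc
Plxnd1: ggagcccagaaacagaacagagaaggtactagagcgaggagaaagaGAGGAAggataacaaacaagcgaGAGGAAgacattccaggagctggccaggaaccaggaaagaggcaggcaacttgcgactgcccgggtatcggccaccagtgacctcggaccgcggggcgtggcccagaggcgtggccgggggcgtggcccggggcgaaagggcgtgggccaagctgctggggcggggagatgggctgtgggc
Sema4a: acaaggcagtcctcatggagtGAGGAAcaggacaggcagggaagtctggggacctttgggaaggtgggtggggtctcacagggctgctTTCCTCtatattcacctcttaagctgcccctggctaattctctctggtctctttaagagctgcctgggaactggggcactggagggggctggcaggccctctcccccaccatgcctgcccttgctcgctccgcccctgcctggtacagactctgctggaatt
Sema4c: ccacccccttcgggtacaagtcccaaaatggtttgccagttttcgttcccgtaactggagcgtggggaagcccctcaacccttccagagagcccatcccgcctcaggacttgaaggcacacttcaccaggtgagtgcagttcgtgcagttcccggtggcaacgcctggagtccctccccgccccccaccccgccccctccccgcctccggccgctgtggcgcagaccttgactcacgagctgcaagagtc
Sema7a: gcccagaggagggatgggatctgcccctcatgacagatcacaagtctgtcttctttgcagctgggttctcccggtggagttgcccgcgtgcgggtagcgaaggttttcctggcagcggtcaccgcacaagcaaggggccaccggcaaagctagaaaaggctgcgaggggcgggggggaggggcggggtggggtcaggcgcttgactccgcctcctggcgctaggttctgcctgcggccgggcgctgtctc

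GAGGAA occurred 2 times in the window of Plxnd1 and 2 times in that of Sema4a, and did not occur in the other 4. Over whole windows of 300 bases, which run 50 bases past the start, it was found in 5 of 13 windows of the higher members (38.5%), 3 of 18 windows of the lower members (16.7%) and 28.3% of the 32851 windows of all genes. The letters are short, several windows belong to 1 gene, and a match is only a description of the sequence. The 51 members with a window had a median GC content of 64.0% against 52.7% over all windows, and a median of 18 CpG dinucleotides against 7. GGGCGG, the GC box, was found in 70.1% of the members' windows and in 35.7% of all windows. Sema4a stood out among the 6 printed genes for a low CpG number, with 4 CpG in its 300 bases against 19 in those of Sema4c, 27 for Plxnb2 and 36 for Plxnb1. Sema4a has 4 windows in RefSeq and only the farthest upstream was printed. The 7 members without a window are Sema3b, Sema3f, Sema6a, Plxna1, Plxna4, Slit1 and Efnb3.

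Among the 8 ephrins, edgeR called 2 lower (against 16.7% of all tested genes) and 0 higher (against 22.7%). At an unadjusted p under 0.05 edgeR gave 1 higher ephrin, Efna5, and DESeq2 called 1 higher, also Efna5. Efnb2, the transmembrane ligand that marks arterial endothelium, was at 82.7 and 85.7 CPM in M7 and M8 and at 23.9 and 28.9 CPM in M9 and M10. At 84.2 ± 2.08 CPM against 26.4 ± 3.50 CPM (SD, n = 2 each) it was 3.19-fold lower (log2 fold change -1.67, SE 0.17, adjusted p = 0.00139), which was the smallest adjusted p of the lower members. Efna1, a lipid-anchored ligand of EphA2, was at 33.3 and 29.1 CPM in M7 and M8 and at 16.6 and 20.4 CPM in M9 and M10. Both libraries labelled Syk MC-KO were lower (log2 fold change -0.76, SE 0.19, adjusted p = 0.0241), but the adjusted p was 0.199 without M7 and 0.114 without M8. Efnb1, at between 59.0 and 88.2 CPM, did not pass the test (log2 fold change -0.32, adjusted p = 0.191). It took 66.6% and 62.3% of class B ephrin transcripts per length in M7 and M8 and 81.7% and 82.6% in M9 and M10, while Efnb2 went from 31.5% and 35.5% to 16.7% and 16.6%. Efna3, Efna4 and Efnb3 were below in both libraries labelled Syk MC-KO and Efna2 and Efna5 above, and these 5 did not pass edgeR's test (Efna5 had a log2 fold change of 1.38, adjusted p = 0.0719).

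The Eph receptors were sparse. Of 14 genes, 8 were tested. Of these 1 was higher and 1 was lower (12.5% each), against 22.7% higher and 16.7% lower over all tested genes. Ephb4, the venous receptor of Efnb2, was at 27.6 and 31.3 CPM in M7 and M8 and at 15.8 and 15.6 CPM in M9 and M10. Its fall of 1.88-fold (log2 fold change -0.91, SE 0.18, adjusted p = 0.0107) had an adjusted p of 0.0531 without M7 and 0.138 without M8. Efnb2 fell by more, so that the ratio of Efnb2 to Ephb4 per length was 2.03 and 1.85 in M7 and M8 and 1.03 and 1.25 in M9 and M10. Epha5, a receptor mainly of neurons, had 9 and 6 counts in M7 and M8 and 18 and 120 counts in M9 and M10. M10 was far above the other libraries, and without it the log2 fold change went from 3.66 (SE 1.03, adjusted p = 0.0322) to 1.60 (adjusted p = 0.117), with 0.0809 and 0.130 without M7 and without M8. Ephb3 held the largest share of the Eph transcripts per length, at 54.6%, 55.7%, 41.3% and 55.5% in M7, M8, M9 and M10. Ephb3 did not pass the test (log2 fold change -0.70, adjusted p = 0.0923), and neither did Epha1, whose adjusted p was the closest to the threshold (log2 fold change -1.64, adjusted p = 0.0519). Epha2, Epha4, Ephb1 and Ephb2 had log2 fold changes between 0.43 and 0.90.

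Of the 6 Eph receptors below the filter, Epha6 and Epha8 had 0 counts in all 4 libraries and Epha10 had 1 count in all. Epha7 had 0, 0, 1 and 2 counts, Ephb6 had 3, 3, 4 and 6 counts and Epha3 had 4, 13, 4 and 3 counts in M7, M8, M9 and M10. A count of 0 allows up to 3 counts, so absence is not shown for the receptors at 0.

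Both libraries labelled Syk MC-KO lay below the others for all 3 Slits, against 37.2% of all tested genes. Of the 3 Slits 2 passed the test as lower, against 16.7% of all tested genes. Slit3 was the main one, with between 88.1% and 96.9% of Slit transcripts per length, at 74.8 and 82.2 CPM in M7 and M8 and 23.6 and 47.5 CPM in M9 and M10. The libraries M9 and M10 were themselves about as far apart as M10 was from M7 (log2 fold change -1.15, SE 0.32, adjusted p = 0.0309), and its adjusted p was 0.0874 without M8 while its log2 fold change was -1.72 without M10. Slit2 had 12 and 103 counts in M7 and M8 and 0 in both M9 and M10. Against a floor of 3 counts per library it was at least 15.0-fold lower than the mean of M7 and M8 (edgeR adjusted p = 0.0259). That bound rests on M8 at 4.19 CPM, since M7 was at 0.4375 CPM and the mean floor of M9 and M10 at 0.155 CPM. Slit2 was not tested without M8 because it then falls below the filter. Slit1, at most 5.78 CPM, did not pass the test (log2 fold change -1.03, adjusted p = 0.156).

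Of the Robo receptors, Robo4, the form of endothelial cells, was the main one, with between 87.6% and 98.9% of Robo transcripts per length. It was at 14.4 and 12.4 CPM against 11.4 and 9.64 CPM and did not pass the test (log2 fold change -0.36, adjusted p = 0.274). The 8 endothelial markers had a median log2 fold change of -0.75, with 3 called lower, and a summed level of 206 and 201 CPM in M7 and M8 and 151 and 141 CPM in M9 and M10. Robo1 had 54 and 56 counts in M7 and M8 but 95 and 6 counts in M9 and M10, so the libraries of one genotype disagreed on its direction (log2 fold change 0.22, adjusted p = 0.878). Of both tested Robos edgeR and DESeq2 called 0, and 0 had an unadjusted p under 0.05 by edgeR. Robo2 had 8 counts in M9 and 0 elsewhere, and Robo3 had 2 counts in M7 and 0 elsewhere.

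Several members lie side by side in the genome (GRCm38). Efna1, Efna3 and Efna4 occupy chr3:89271733-89338028, with 32.8 and 10.4 kb between them, and had log2 fold changes of -0.76, -0.78 and -0.66, of which only that of Efna1 passed the test. Sema3b and Sema3f lie 72.3 kb apart on chromosome 9 and were both called lower. Robo3 and Robo4 lie 553 bases apart on the same chromosome, and Robo3 had almost no counts where Robo4 had at least 9.64 CPM.

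Ligands and receptors can also be set side by side. Of the 31 tested ligands (semaphorins, ephrins and Slits) 3 were higher (9.68%) and 13 were lower (41.9%). Of the 19 tested receptors 4 were higher and 4 were lower (21.1% each). Over all tested genes 22.7% were higher and 16.7% lower, so the receptors lay near those shares. The difference between the kinds was not tested. Plxnd1 was 45.8 and 45.3 times its ligand Sema3e per length in M7 and M8 and 188 and 202 times in M9 and M10. Sema7a was 14.7 and 40.4 times its receptor Plxnc1 in M7 and M8 and 2.64 and 5.64 times in M9 and M10. Both ratios are free of the scaling of the libraries.

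Genes outside the 6 families that act with these ligands and receptors were read from the same fit. In that fit 22.7% of all tested genes were higher and 16.7% lower. Of 10 tested semaphorin receptors and co-receptors other than plexins, 7 were higher and 1 was lower (median log2 fold change 2.06). Tyrobp, the adaptor of myeloid activating receptors (36.2 and 27.6 against 377 and 215 CPM, log2 fold change 3.21, adjusted p = 0.00136), Cd72, a receptor of Sema4d (17.5 and 8.71 against 118 and 78.5 CPM, log2 fold change 2.91, adjusted p = 0.00265), and Trem2, which forms a receptor for Sema6d with plexin A1 (16.8 and 10.9 against 130 and 75.8 CPM, log2 fold change 2.89, adjusted p = 0.00201), moved most. These genes are themselves expressed by leukocytes, and 6 of 6 pan-leukocyte markers were higher with a median of 3.37. The neuropilins Nrp1 and Nrp2, which carry class 3 semaphorins, were also higher (log2 fold changes 1.29 and 2.25), opposite to their class 3 ligands under TMM scaling.

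Of 9 tested netrins, netrin receptors and repulsive guidance molecules, edgeR called 5 lower (against 16.7% of all tested genes) and 0 higher (against 22.7%). The median log2 fold change of this list was -0.77. At an unadjusted p under 0.05 edgeR gave 1 higher gene, Unc5c, and DESeq2 called 0. Ntn4, a netrin of basement membranes, had a log2 fold change of -2.09 (11.0 and 19.8 against 3.16 and 4.09 CPM, adjusted p = 0.00764), Ntn1 of -1.14 (adjusted p = 0.0204) and its receptor Unc5b of -0.90 (adjusted p = 0.0209). Of 6 other partners of Robo and Slit, 1 was higher and 3 were lower. Flrt3, a Robo co-receptor, stood at 0.365 and 0.448 CPM in M7 and M8 and at 15.3 and 7.52 CPM in M9 and M10 (log2 fold change 4.80, adjusted p = 0.00167). The Slit-binding proteoglycan Gpc1 (-1.08, adjusted p = 0.00836) and the Slit-binding protein Dag1 (-0.87, adjusted p = 0.0106) were lower.

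The effectors inside the cell were divided, beside 22.7% higher and 16.7% lower over all tested genes. Of 16 effectors of plexins 3 were higher and 3 lower, led by the kinase Fes (2.41, adjusted p = 0.00288), the collapsin response mediator Dpysl2 (1.44, adjusted p = 0.00168) and the exchange factor Farp1 (-1.07, adjusted p = 0.004). Of 10 effectors of Eph receptors and ephrins 2 were higher and 3 lower. With a mean of at least 1 CPM, the most changed were the Rac-inactivating protein Chn2 (2.44, adjusted p = 0.00442) and the kinases Abl2 (-1.14, adjusted p = 0.00479) and Abl1 (-0.74, adjusted p = 0.0146). Of 9 effectors of Robo 2 were higher and 2 lower, led by the paralogous actin regulators Evl (1.79, adjusted p = 0.000878) and Enah (-0.83, adjusted p = 0.0227), with Srgap2 at 0.79 (adjusted p = 0.0094). Of 5 enzymes that shed or cleave guidance proteins 3 were higher, among them Adam17 (1.50, adjusted p = 0.00388) and Furin (1.28, adjusted p = 0.00513). Over the 65 tested genes of these lists 18 were higher, 17 were lower and the median log2 fold change was -0.02, all by edgeR's quasi-likelihood test adjusted over 16451 genes.

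**Figure D4:**
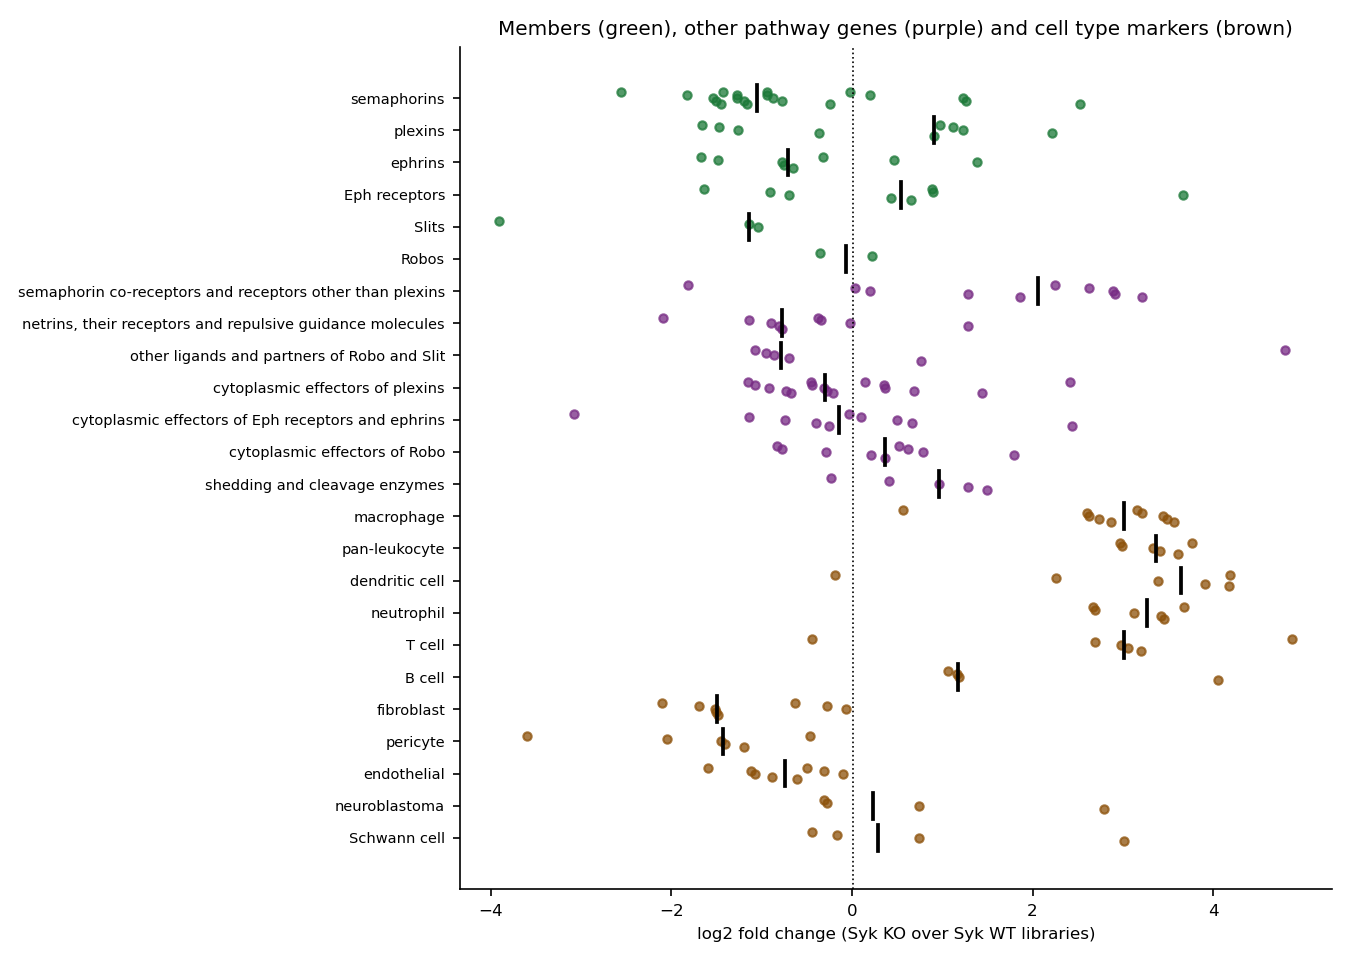
Log2 fold change (libraries labelled Syk MC-KO over Syk MC-WT, TMM scaling) of each tested gene of the 6 families in green, of other pathway genes in purple and of cell type markers in brown, with black bars for medians and a dotted line at the median of all genes (0.02). The Slit2 point is its bound. The semaphorin median (-1.05) lies below that of the endothelial markers (-0.75) and above those of the pericyte (-1.43) and fibroblast (-1.49) markers. All of these lie far below the macrophage markers (median 3.01), and under scaling to macrophage markers the whole axis moves down.

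Markers of other cell types moved with the genotype labels beside these genes. Pericyte markers were lower in 5 of 6 (median -1.43, summed 569 and 592 against 146 and 202 CPM). The medians of the fibroblast and endothelial markers were negative too. The fibroblast markers had a median of -1.49, and 8 of the 50 members were below it. Neutrophil (6 of 6), T cell (5 of 6) and dendritic cell (4 of 6) markers were higher, as was 1 of 4 tested B cell markers, with medians of 3.27, 3.02, 3.65 and 1.18. Of the members only Epha5 had a log2 fold change above the macrophage median of 3.01. The neuroblastoma markers Th and Dbh were at 0 in all libraries. The 4 neuroblastoma markers that could be tested (1 higher, median 0.23) summed to between 215 and 337 CPM with overlap between the genotypes. Most of that sum was Hand2, at 261.8, 301.2, 178.0 and 286.5 CPM in M7, M8, M9 and M10. Of the 4, 2 lay above in both libraries labelled Syk MC-KO, 0 lay below in both and 2 overlapped. Of 4 tested Schwann cell markers 1 was higher (median 0.29). The part of other cell types, and of the mitochondrial share, in the differences of the guidance genes was not tested.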

How the data were processed

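The deposited table holds raw whole-number counts per Ensembl mouse gene for 54532 genes in 4 libraries, not normalized. The authors aligned to mm10 by STAR with its defaults, followed by Salmon quantification within bcbio, and the submitters' processing notes name STAR 2.6.1d and Salmon 1.4.0. How Salmon's estimates became whole numbers is not given in the sources used here, and reads of similar paralogs may have been divided by estimation. The methods describe single reads in triplicate, whereas the labels describe paired reads of 150 bases and 2 libraries per genotype. Groups were taken from the labels.

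Counts were compared in R 4.3.3 with edgeR 4.0.16 (filterByExpr, TMM, non-robust glmQLFit followed by glmQLFTest), p-values being adjusted by Benjamini-Hochberg over 16451 genes and a threshold of 0.05. TMM factors were 1.22 and 1.19 for M7 and M8 and 0.876 and 0.787 for M9 and M10, and they set the zero of every fold change. Levels are CPM on TMM-scaled totals, and an SD is over 2 libraries. Levels compared between genes are CPM per kilobase of summed exon length (GENCODE M21 on GRCm38, which matched 54495 genes). Nothing says that the libraries of a genotype came from separate mice, so p-values measure the spread between these libraries. For 1 gene, exact two-sided permutation of 4 libraries gives no p under 0.333. Floors of 3 counts cover counting error only. DESeq2 1.42.0, other scalings, other filters and each library left out were the alternatives.

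Members and gene lists were chosen with earlier results of these data known. Named were all members with an adjusted p under 0.05 and a mean of at least 1 CPM, with values in every library. Also named were the 3 most changed called genes of each pathway list with a mean of at least 1 CPM. The neuropilins, Col1a1, Col3a1 and Hand2 were named after their values were seen. The values of 1 pathway gene and 1 marker are not reported here. Of 14 listed netrin genes 13 were matched.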

Additional observations from a re-analysis of the deposited data

How the results depend on the processing

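No other test or filter changed the number of members called by more than 1.5 times: with edgeR's RLE factors, the robust fit, DESeq2, both other filters or without mitochondrial and rRNA-like genes, between 6 and 9 members were higher (7 in the report) and between 17 and 18 lower (17 in the report), and 8 and 25 at an adjusted p under 0.1. Of all genes tested in each of these fits, between 15.7% and 24.5% were higher and between 12.7% and 20.2% lower at the threshold of 0.05. The shares of all tested genes at an adjusted p under 0.1 were not counted. Scaling had more effect. With library size only, 4 members were higher and 31 lower, against 10.2% and 32.9% of all tested genes. The log2 fold changes of Efna2 (-0.078), Ephb2 (-0.079), Robo1 (-0.25) and Sema4b (-0.34) then turned negative. With scaling to 10 macrophage markers, edgeR called 0 members higher (0 also at an unadjusted p under 0.05, while DESeq2 was not run with this scaling) and 43 lower. Of all tested genes 0.766% were higher and 87.0% lower under this scaling, with the median of all genes at -2.78. There the values were -2.26 for Efna2, -1.30 for Efna5, -2.21 for Epha2, -1.79 for Epha4, -1.70 for Ephb1, -2.50 for Ephb2, -0.59 for Plxna4, -1.86 for Plxnb2, -1.51 for Plxnb3, -1.66 for Plxnc1, -1.91 for Plxnd1, -2.88 for Robo1, -0.33 for Sema4a, -2.60 for Sema4b, -1.62 for Sema4d and -1.65 for Sema6b. The 2 scalings differ from TMM only in the factor given to each library.

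With each library left out, between 3 and 9 members were higher and between 7 and 27 lower, the lone library being taken to vary like the pair of the other genotype. Without M7 or M8 fewer members passed, and without M9 or M10 more did. The shares of all tested genes that passed moved in the same way, so this swing was not particular to the members. How many of all tested genes passed in every one of these fits was not counted. In all 4 of these fits 2 higher members (Sema4a and Sema4d) and 7 lower members (Efnb2, Plxnb1, Sema3a, Sema3f, Sema4g, Sema6c and Sema7a) passed. The log2 fold change crossed 0 for Epha4 (-0.052 to 1.39), Ephb1 (-1.02 to 1.61), Ephb2 (-0.028 to 0.80), Robo1 (-2.77 to 1.13) and Sema6d (-0.32 to 0.18), none of which had passed the test. No paired analysis was possible because the labels share no replicate number between the genotypes. Genes near 3 counts could not be compared at this depth.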
